A study of Solanum lycopersicum with 12 samples.

Results

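The transcriptome described here is that of mock-treated tomato seedlings: whole wild-type plants of Solanum lycopersicum that received solvent alone. Seedlings were placed in liquid Murashige and Skoog medium 3 days after germination, grown there for 8 days at 22 °C with 16 h light and 8 h darkness, and then held for 3 h in fresh medium containing 0.1% DMSO (mock). Cultivar, number of plants per sample and hour of harvest are not stated in the sources used. The members are the 3 mock libraries, of 12 samples in the series, and were chosen by their treatment label. No treated sample enters any value below, so there is no comparison between groups and no significance test. The design text calls the 3 samples independent biological replicates, without saying what was independent, and the spread between them may include technical spread.

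A whole seedling mixes cotyledons, first leaves, hypocotyl and root, so its messenger RNA is a weighted sum of very different cells. In light-grown green tissue, messages for the photosynthetic apparatus are abundant: light-harvesting proteins hold the chlorophyll that gathers light, and Rubisco, whose small subunit is encoded in the nucleus, fixes carbon dioxide. Abscisic acid (ABA), the hormone of drought and seed dormancy, acts through soluble receptors that, once bound, inhibit clade A PP2C phosphatases and so release SnRK2 kinases, which activate bZIP transcription factors. Mock libraries show how much messenger RNA of the listed genes of this pathway is present without added hormone. Protein and response were not measured in them.

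The gene IDs could not be paired with names: 0 of the 34075 IDs of the count table matched the RefSeq gene table at hand. Single IDs are therefore given without a name or function. Gene families are described only as lists of IDs, 280 distinct IDs in 20 lists, of which 275 were in the table. The lists were written down from general knowledge of tomato, their membership was not checked against an annotation, and each family name is only as sure as its list.

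The 3 libraries held 21953974, 21903348 and 22098966 counts in replicates 1, 2 and 3. Counts were scaled to CPM (counts per 1000000 of the library) with trimmed-mean (TMM) factors of 0.989, 0.976 and 1.04. CPM is not divided by transcript length, so an order of IDs by CPM is an order of read share and not of transcript number. At this depth 3 counts over the 3 libraries, the limit that a count of 0 allows, amount to 0.0455 CPM. This limit covers counting error alone.

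Of the 34075 IDs, 23233 had at least 1 count in all 3 libraries, 979 in 2 of them and 1328 in 1 of them. The remaining 8535 IDs, 25.0% of the table, had no count. Single libraries detected 24281, 24246 and 24458 IDs, so they differed little in how many IDs they reached. Among the IDs seen in only 1 library, the highest count was 6 in replicate 1, 20 in replicate 2 and 32 in replicate 3. A mean of at least 1 CPM, the threshold for calling an ID expressed here, was reached by 19551 IDs, 57.4% of the table, and 18914 reached 1 CPM in every library. Among expressed IDs the median was 17.8 CPM, and the middle 90% lay between 1.54 and 161 CPM.

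Read shares were concentrated in a small number of IDs. The 10 leading IDs of each library held 5.94% ± 0.585 of its counts (SD, n = 3), the 100 leading IDs 21.8% ± 2.01, and the 1000 leading IDs 48.6% ± 1.77. Replicate 3 was the least concentrated: its 100 leading IDs held 19.6% of counts, against 22.6% in replicate 1 and 23.4% in replicate 2. To reach 50% of all counts took 1059, 996 and 1220 IDs in replicates 1 to 3, and 90% took 8314, 8214 and 8522. The 98 IDs with a mean of at least 1000 CPM made up 0.384% of the IDs with a count and held 21.6% of the counts. At the other end, the 5989 IDs with counts but under 1 CPM held very little, with 0.148% of counts in those from 0.1 to 1 CPM and 0.00982% in those below.

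**Figure D1:**
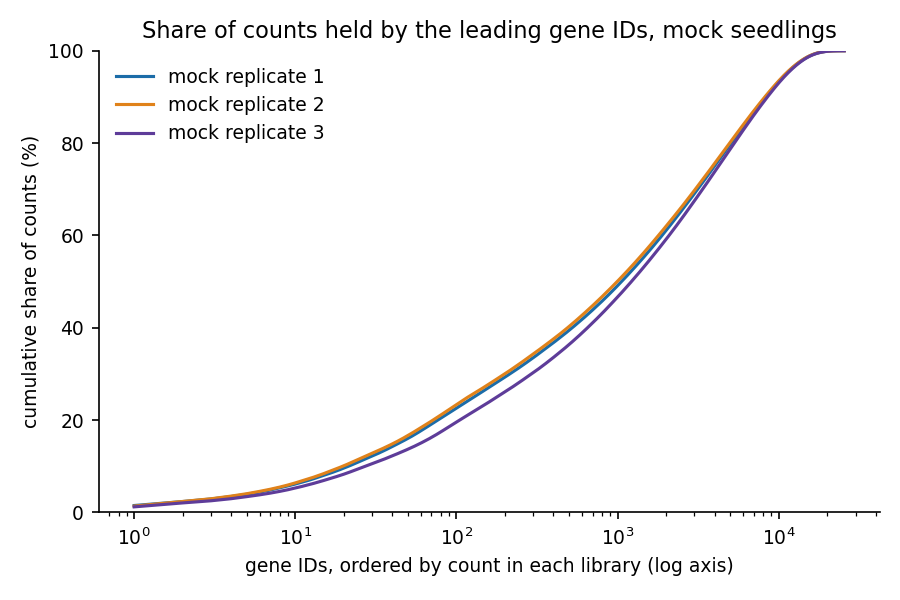
Cumulative share of counts (percent) against gene IDs ordered by count (log axis), 1 line per mock library. The line of replicate 3 runs below the other 2 over most of the axis, with 19.6% of counts in its 100 leading IDs against 22.6% and 23.4%.

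The leading ID, Solyc10g086580.2, had 15143 CPM in replicate 1, 14024 in replicate 2 and 11642 in replicate 3. Its mean was 13603 ± 1788 CPM (SD, n = 3), or 1.36% of all counts, and it ranked first in each library. Solyc03g034220.3 followed with 8716, 10193 and 8234 CPM. It was second in every library, and the gap of 4556 CPM between these leaders was 2.55 times the larger of their SDs. Solyc06g063370.3 had 5630, 6131 and 4483 CPM in replicates 1 to 3. Solyc07g066310.3 had 5371, 5939 and 4368 CPM. The gap between these IDs, 188.8 CPM, was 0.223 of the larger SD, but the order was the same in all 3 libraries. Both IDs were measured in the same libraries and were lowest in replicate 3, so this SD is not the spread of their difference.

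Solyc10g006230.3 had 4934, 5289 and 4289 CPM and took rank 5 in every library. Solyc02g070940.1 had 4663, 5149 and 3615 CPM and took rank 8, 6 and 7. From the third place to the tenth, each neighbouring gap was under 0.5 of the larger SD. That SD again leaves out that neighbours share their libraries, and the differences within libraries were not tested. The IDs in places 3 to 5 held the same rank in each library. All 10 leading IDs were lowest in replicate 3. Of the 10 leading IDs in each library 7 were shared by all 3 libraries, as were 92 of the leading 100 and 856 of the leading 1000.

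**Figure D2:**
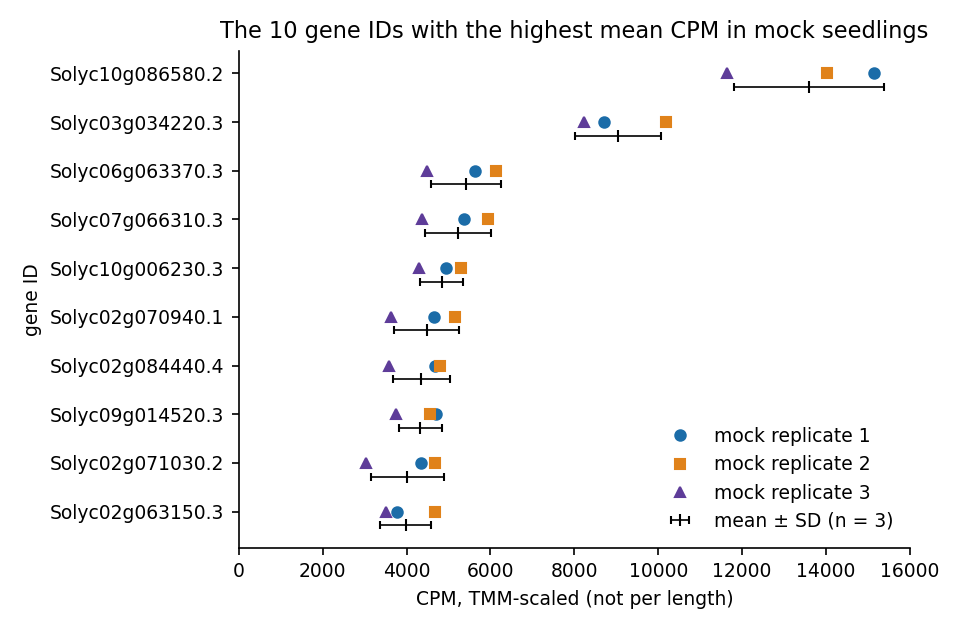
CPM of the 10 gene IDs with the highest mean, 1 row per ID, with 1 symbol per mock library and the mean ± SD (n = 3) drawn under them. Solyc10g086580.2 and Solyc03g034220.3 stand clear of the rest, and the symbol of replicate 3 lies to the left of both others in every row.

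The list of photosynthesis genes (light-harvesting proteins, Rubisco small subunit, Rubisco activase and some photosystem and electron-carrier proteins) supplied 7 of the 10 leading IDs, 20 of the leading 50 and 23 of the leading 100. All 29 listed IDs found in the table were expressed, between 46.4 and 13603 CPM, with a median of 1919 CPM, and 26 reached 100 CPM. Together they had 87271 CPM in replicate 1, 93430 in replicate 2 and 67889 in replicate 3, a mean of 82863 ± 13329 CPM (SD, n = 3). Replicate 3 was lowest in 28 of the 29 and highest in 0, and replicate 2 was highest in 25. Over all expressed IDs, each library was lowest in 31.9 to 34.3% and highest in 33.1 to 33.7%, a balance that TMM scaling itself brings about. With library totals in place of TMM factors, replicate 3 was highest in 45.2% of all expressed IDs and lowest in 24.6%.

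In mean log2(CPM + 1), the list stood at 0.11, 0.22 and -0.33 relative to the 3-library mean in replicates 1 to 3. With library totals, replicate 3 was lowest in 28 of 29 as well, and replicate 2 highest in 22. Members of 1 list are not independent of each other. In RNA from whole plants, fewer green cells and less photosynthetic RNA per cell cannot be told apart.

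The low position of replicate 3 reached beyond the list. Of the 77 leading IDs outside it, 63 were lowest in replicate 3 with TMM scaling, beside 34.3% of all expressed IDs. This count was not repeated with library totals. The summed CPM of these 77 IDs was 142905, 148017 and 122005 in replicates 1 to 3. Their median coefficient of variation (CV, the SD divided by the mean) was 12.9%, against 19.5% for the 23 listed ones. What these further IDs encode is not known from the files.

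Over all lists, 234 of the 275 IDs found, or 85.1%, were expressed, beside 57.4% of the whole table, and the counts of expressed members given here are to be read against both shares. Beside the shoot's photosynthesis genes, 9 of 11 listed genes of nutrient and iron uptake, which work mainly in roots, were expressed, with a median of 31.0 CPM. Their 2 leading members had 176, 142 and 118 CPM and 142, 167 and 122 CPM in replicates 1 to 3. The summed level of this list was 518, 570 and 459 CPM, which was lowest in replicate 3 as for the photosynthesis list, but its members did not move as 1 group: 4 of 9 were lowest in replicate 3, 3 in replicate 1 and 2 in replicate 2.

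Other lists stood for organs that seedlings lack. Of 13 flower and pollen genes, among them floral organ identity factors, 1 was expressed, with 15.8, 17.3 and 16.6 CPM. The next had a mean of 0.440 CPM, and 4 had no count. Of 17 fruit ripening genes 10 were expressed, a share near that of all IDs of the table. The list held enzymes of pigment and cell wall metabolism that vegetative tissue may also use, and 1 of its IDs is in the carotenoid list too. Its highest member had 134, 99.4 and 109 CPM, and 7 members were under 1 CPM, 1 of them without a count.

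Genes commonly used as references in tomato qPCR (housekeeping proteins such as actins, elongation factor and ubiquitin) were expressed in 12 of 13 cases, and 1 had a mean of 0.592 CPM. Their levels ran up to 1167 CPM. Their CV between libraries was between 2.48 and 13.4% with a median of 6.95%, beside a median of 11.6% for all expressed IDs and 10.1% for the 1870 IDs with at least 100 CPM. The member with the smallest CV had 45.3, 45.5 and 47.4 CPM. The member with the largest had 411, 464 and 536 CPM. Replicate 3 was its highest library, as it was for 7 of the 12, beside 33.1% of all expressed IDs with TMM scaling.

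**Figure D3:**
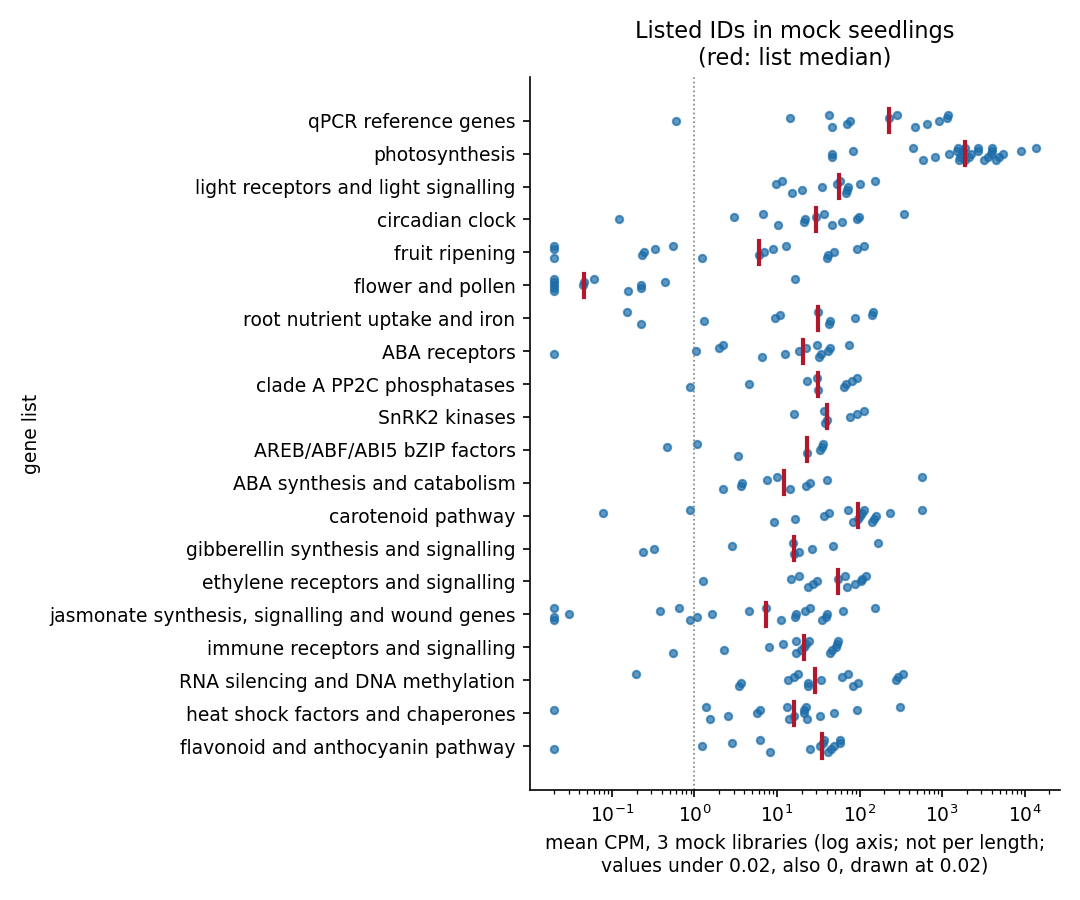
Mean CPM over 3 mock libraries (log axis) of each listed gene ID, 1 row per list, with the list median in red and a dotted line at 1 CPM; values under 0.02 CPM are drawn at 0.02. The photosynthesis list lies highest, with a median of 1919 CPM, and 12 of 13 flower and pollen IDs lie left of the line.

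Members of the core ABA pathway were measured without added hormone. Of 14 listed ABA receptors 13 were expressed and 1 had no count. Their highest member had 63.1, 73.8 and 86.3 CPM, and the median of the list was 20.5 CPM. Summed over the list, receptors had 314, 336 and 320 CPM, with a CV of 3.49%. The lowest expressed receptor, with 1.29, 0.468 and 1.35 CPM, had the largest CV of the list, 47.6%.

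Of 9 listed clade A PP2C phosphatases, the repressors that the receptors inhibit, 8 were expressed. The most abundant had 96.1, 90.5 and 94.6 CPM, and the one below the threshold had a mean of 0.879 CPM. All 7 SnRK2 kinases were expressed, from 15.9 to 114 CPM. The second of them by level had 66.6, 95.6 and 117 CPM, a CV of 27.3%, the largest in its list. Of 7 AREB/ABF/ABI5 bZIP factors, which bind ABA-responsive promoters, 6 were expressed, up to 36.1 CPM. Their summed level was 133, 133 and 131 CPM.

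All 10 listed genes of ABA synthesis and breakdown were expressed. The highest of them, which is in the carotenoid list as well, had 739, 495 and 471 CPM and took most of the list's summed 698 ± 147 CPM (SD, n = 3). Replicate 1 was the high library for it. The other 9 had means between 2.19 and 40.0 CPM.

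Further lists had most of their members highest or lowest in the same library. Under TMM, replicates 1, 2 and 3 were highest in 33.7, 33.2 and 33.1% of all expressed IDs and lowest in 33.9, 31.9 and 34.3%. With library totals these shares were 29.6, 25.2 and 45.2% highest and 36.9, 38.5 and 24.6% lowest. The counts given for these lists are to be read against these shares. All 12 expressed genes of the circadian clock, the oscillator that times daily gene expression, were highest in replicate 1. The leading clock ID had 372, 343 and 322 CPM, and the fourth had 78.9, 52.5 and 52.3 CPM. On the log2 scale the list stood at 0.16, -0.08 and -0.08. With library totals, 10 of the 12 were highest in replicate 1 and 2 in replicate 3. Because clock genes change over the day, the hour of harvest is of interest here; it is not given for each sample, and its part in these values was not tested.

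Carotenoid pathway genes, whose products include the precursors of ABA, were highest in replicate 1 in 12 of 15 cases (10 with library totals). Their summed CPM was 2251, 1800 and 1733. Light receptors and light-signalling genes, among them phytochromes and cryptochromes, were also highest in replicate 1, in 9 of 12 cases (7 with library totals), and ranged from 9.63 to 156 CPM.

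Genes of the flavonoid and anthocyanin pathway, which makes ultraviolet-screening and red pigments, were highest in replicate 2 in 12 of 13 cases, with either scaling. Their summed level was 380, 482 and 343 CPM. The leading ID had 58.9, 71.4 and 45.4 CPM. Of RNA silencing and DNA methylation genes (Dicer-like and Argonaute proteins and methyltransferases among them), 13 of 15 were lowest in replicate 2 and 0 highest there, with either scaling. Their summed level was 1389, 1230 and 1459 CPM. Over all expressed IDs, 38.5% were lowest in replicate 2 with library totals. Ethylene receptors and signalling genes were split, with 8 of 13 highest in replicate 3 and 5 in replicate 1 under either scaling. Of all expressed IDs, 45.2% were highest in replicate 3 with library totals. The mean of the ethylene list stood at -0.15, -0.03 and 0.18 on the log2 scale. No list spanned more than the photosynthesis list, and a position of 1 library has no replicate check.

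**Figure D4:**
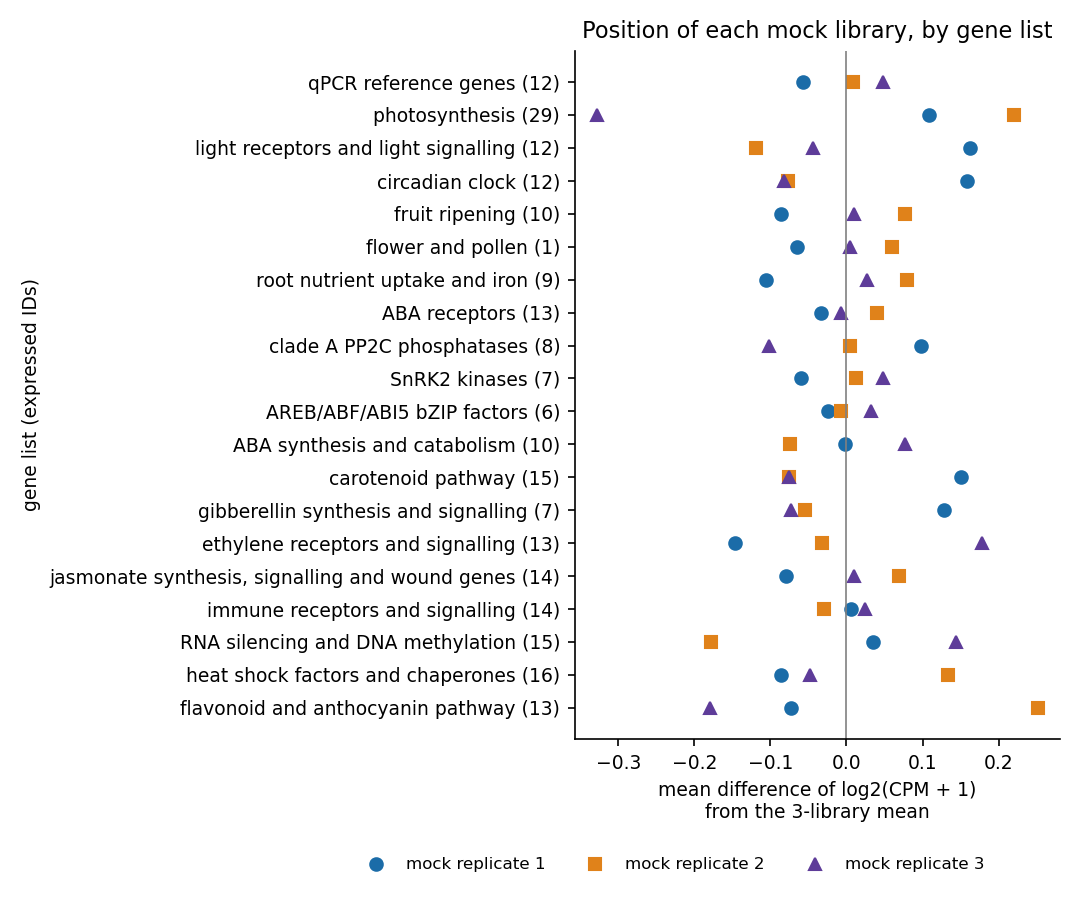
Mean difference of log2(CPM + 1) from the 3-library mean, 1 row per gene list (number of expressed IDs in brackets) and 1 symbol per mock library. The photosynthesis list has the widest span, from -0.33 in replicate 3 to 0.22 in replicate 2, and the clock list has replicate 1 at 0.16 with both others at -0.08.

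The remaining lists were expressed for the most part. Of 17 heat shock IDs 16 were expressed and 1 had no count, with a median of 16.1 CPM. The highest, at 279, 326 and 333 CPM, stood well above the next, at a mean of 93.7 CPM. Of 21 jasmonate and wound genes 14 were expressed, and 3 had no count. The list's highest member had 152, 181 and 128 CPM. Of 15 immune receptor and signalling genes 14 were expressed, at most at 55.0 CPM, and the list's summed level varied by 3.26% (CV). Of 9 gibberellin genes 7 were expressed; the leading ID had 190, 162 and 149 CPM.

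The spread between libraries depended on abundance. The median CV of IDs with 1 to 10 CPM was 16.4%. The CV expected from counting error alone, 1 over the square root of the mean count, had a median of 10.7%. A CV taken over 3 libraries lies below the underlying CV more often than above it. The excess over counting is therefore understated in each class. For 10 to 100 CPM the median CV was 10.0%, with 4.07% from counting. For 100 to 1000 CPM it was 9.87%, with 1.68% from counting. For IDs of at least 1000 CPM it rose to 14.6%, with 0.531% from counting. Among the latter the 23 photosynthesis-list IDs had a median CV of 19.5% and the other 75 one of 12.9%. Below 1 CPM counting error dominated: for 0.1 to 1 CPM the median CV was 37.4% and counting gives 34.6%.

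After the counting variance was subtracted, the median CV that was left was 11.6, 9.06, 9.72 and 14.6% in the 4 classes from 1 CPM upwards. No excess over counting error was seen in 28.4% of IDs with 1 to 10 CPM, and in 1.86% of those with 100 to 1000 CPM. With 3 libraries, an ID with further spread can also show no excess. These are therefore not the shares of IDs without further spread. edgeR's common biological coefficient of variation over the 19551 expressed IDs was 15.8%. In simulated counts, IDs raised in single libraries by a set amount, not matched to these data, raised such a common value. Whether IDs far apart between libraries raised the value here was not tested. Over expressed IDs the median CV was 11.6%, and the middle 80% lay between 4.26 and 27.5%. A CV above 50% was found in 327 IDs and one under 5% in 2623. The highest library exceeded the lowest by more than 2-fold in 5.39% of expressed IDs and in 1.76% of the 12667 IDs with at least 10 CPM.

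**Figure D5:**
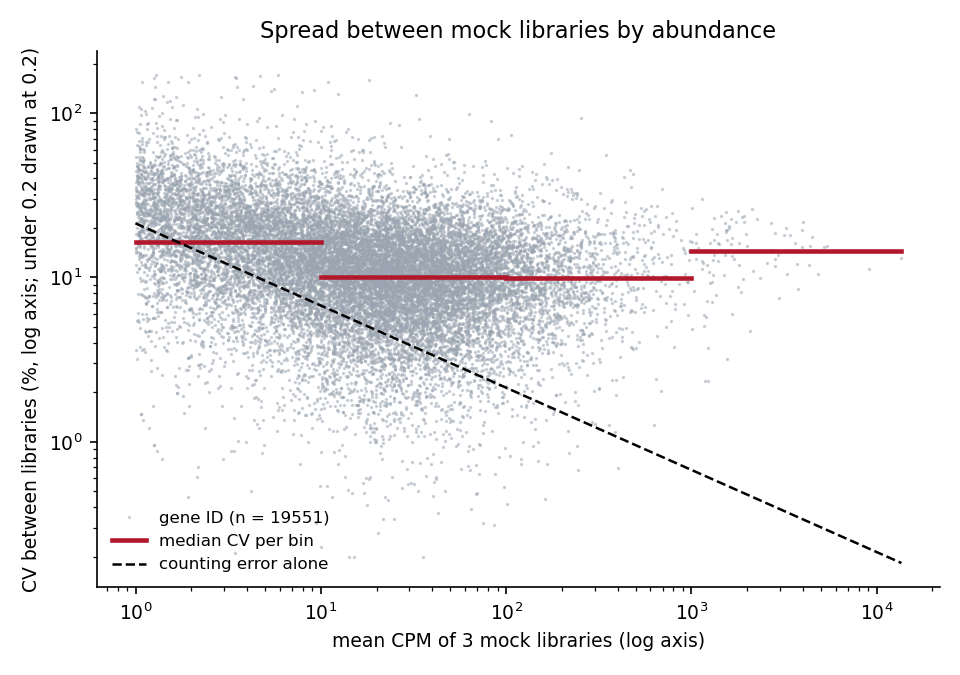
CV between the 3 mock libraries (percent, log axis) against mean CPM (log axis) for each of the 19551 expressed gene IDs. The median per class of CPM is drawn in red. The dashed line is the CV expected from counting error alone. The median falls from 16.4% at 1 to 10 CPM to about the level of 9.87% at 100 to 1000 CPM and is 14.6% above 1000 CPM.

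As a check for a library deposited more than once, counts were compared pair by pair with the noise of counting alone, and each pair exceeded it. The chi-square of their counts, divided by its degrees of freedom, was 15.6 for replicates 1 and 2, 25.1 for 1 and 3, and 21.8 for 2 and 3. Pearson's r of log2(CPM + 1) over expressed IDs was 0.986, 0.983 and 0.984 for the same pairs. These correlations are across IDs, which share a library and are not replicates, and serve as a description. The SD of the log2 ratio was 0.31 for replicates 1 and 2, 0.35 for 1 and 3, and 0.33 for 2 and 3. By these measures replicates 1 and 2 were the closest pair, by a small margin, but the median absolute log2 ratio was 0.177, 0.175 and 0.177 and smallest for replicates 1 and 3. Between replicates 1 and 2, 193 IDs differed by more than 2-fold on the log2(CPM + 1) scale, against 311 between 1 and 3 and 223 between 2 and 3.

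Of the 12667 IDs with at least 10 CPM, 119 stood far from the mean of the other libraries in at least 1 library. An ID can be counted in more than 1 library, because a high value in one also makes the others low: 63 were far in 1 library, 49 in 2 and 7 in 3. In replicate 1, 21 IDs were more than 2-fold above the mean of the other libraries on the log2(CPM + 1) scale and 55 below. In replicate 2, 0 were above and 31 below. In replicate 3, 53 were above and 22 below, or 69 and 17 with library totals. With each of the 119 IDs counted once, in the library where it was farthest, 8 were above and 34 below in replicate 1, 0 and 25 in replicate 2, and 33 and 19 in replicate 3.

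The largest excess in replicate 3 was that of Solyc01g090350.3, with 2.17, 0.702 and 51.9 CPM in replicates 1 to 3 (47, 15 and 1188 counts). It was high in replicate 3 alone, 4.51 above the mean of the others on the log2 scale. The next ID in number, Solyc01g090360.3, was also high there, and the values of both lay between 31.0 and 51.9 CPM in replicate 3 and at most at 4.24 CPM elsewhere. Solyc02g077020.3, the ID with the largest shortfall in replicate 1, had 1.24, 1.08 and 30.6 CPM. Replicates 1 and 2 were alike for it, and replicate 3 was the library apart.

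The largest shortfall in replicate 2 was that of Solyc02g086454.1, with 31.3, 4.40 and 66.5 CPM. The IDs on both sides of it, Solyc02g086452.1 and Solyc02g086456.1, were low in the same library: the 3 lay between 1.26 and 4.40 CPM in replicate 2, against 12.6 to 31.3 in replicate 1 and 20.0 to 66.5 in replicate 3. Whether such neighbouring IDs are near-identical copies is not known here. If they are, reads may have been divided between them, and they may not be separate measurements.

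The remaining extremes were smaller. Solyc06g054270.3, farthest above in replicate 1, had 32.4, 13.9 and 8.60 CPM. Solyc01g103920.3, farthest above in replicate 2, had 8.98, 18.7 and 9.43 CPM. Solyc04g081530.1, farthest below in replicate 3, had 27.9, 26.4 and 9.25 CPM, and the other libraries lay close together.

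At the stable end, Solyc10g081580.3 had the smallest CV among the IDs with at least 100 CPM, with 101.0, 101.5 and 101.9 CPM, a CV of 0.419%. Solyc01g060470.3 followed with 161.5, 161.8 and 160.4 CPM and a CV of 0.451%. Counting error alone gives a CV of 2.12% and 1.68% at these depths, so both lay below what counting error gives on average, and their place at the head of the order is no measure of their stability.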

How the data were processed

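The values are raw read counts per gene ID, deposited by the authors as whole numbers in 1 table. Per the labels' protocols, RNA was extracted from whole seedlings with a plant RNA kit and made into strand-specific mRNA libraries for DNBSEQ. Tools named in the submitters' processing notes are STAR, cutadapt, FastQC and DESeq2, with neither role nor version. Build, annotation, counting step and use of strand in counting are not stated in the sources used. Columns were matched to samples by name; 3 columns matched no label and were not used.

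TMM factors and dispersions came from edgeR 4.0.16 in R 4.3.3 (design with an intercept alone), and median-of-ratios factors from DESeq2 1.42.0. Log2 values use a pseudocount of 1 CPM. IDs were named by rule: the first 6 by mean CPM, for each library and direction the ID with at least 10 CPM farthest from the mean of the others, and the 2 with the smallest CV at 100 CPM or more. Neighbours of 2 such IDs were named after their values were seen. Members and lists were chosen with earlier results of these data known. The steps were tested on simulated counts. The common biological coefficient of variation, read there at 10 CPM or more, came out close to the set value without changed IDs. It came out above the set value with IDs raised in single libraries by an amount not matched to these data.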

Additional observations from a re-analysis of the deposited data

How the results depend on the processing

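No paired analysis was possible because the values come from 1 group and from no test. Counts of expressed IDs, in all and on the lists, stayed within 1.5 times the reported value under every alternative run, a wide band. Counts of IDs far from the other libraries did so with other scalings and with a pseudocount of 0.5 CPM. They were not repeated without a library. With 1 library left out, the photosynthesis sum was 78541 to 88739 CPM. Leaving out 1 of 3 libraries can hardly move their mean by their SD, so this was no check. Without the 10 leading IDs, the next 100 held 17.9% of the rest. The median CV of 11.6% was 12.0% with library totals, 14.5% with no filter and 10.0% from 10 CPM; with 2 of the 3 libraries it was 9.52 to 9.61%, since an SD over 2 values has a lower median. The median SD of log2 CPM, 0.152, was 0.157 with totals, 0.137 with no filter, 0.140 from 10 CPM, 0.160 with a pseudocount of 0.5 CPM and 0.124 to 0.125 with 2 libraries. The mean SD of the log2 ratio over pairs, 0.330, was 0.306, 0.292 and 0.361 with no filter, from 10 CPM and with that pseudocount, and 0.308 (without replicate 3) to 0.348 for single pairs. The common biological coefficient of variation was 14.0% from 10 CPM and 14.5% (without replicate 3) to 16.8% with 2 libraries. The expressed share of all IDs was 61.1% at 0.5 CPM, 55.5% with 1 CPM in every library and 58.2% without chromosome number 00. For IDs of model version 1 these were 26.3, 20.4 and 23.3%, and for version 4 the first 2 were 90.4 and 85.4%. No excess over counting error was seen in 46.8% of IDs from 0.1 to 1 CPM and in 58.4% of those below. IDs with further spread can be among these as well. At this depth a difference between libraries in an ID under 1 CPM often cannot be told from counting error.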

Other observations

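The IDs carry a chromosome number and, after the point, a version number of the gene model, and read shares differed by both. Chromosome 2, with 9.92% of the IDs, held 12.4% ± 0.485 of the counts (SD, n = 3) and 20 of the 100 leading IDs; without those 100 IDs its share was 9.62%. Its share was 12.5, 12.8 and 11.9% in replicates 1 to 3, the largest SD of any chromosome. Chromosome 1 held 12.6% ± 0.204 with 12.1% of the IDs and 8 of the leading 100, and 14.3% without those 100 IDs. Chromosome 11, with 6.83% of the IDs, held 5.21% ± 0.144 and 2 of the leading 100, and 6.36% without those 100 IDs. Of the 513 IDs with chromosome number 00, 5 were expressed and 477 had no count. Among chromosomes 1 to 12 the expressed share lay between 51.6% on chromosome 10 and 62.4% on chromosome 2.

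The expressed share rose with the version number. Of 11748 IDs at version 1, 22.3% were expressed and 54.1% had no count. The expressed share was 60.0% of 4848 at version 2, 76.8% of 11767 at version 3 and 87.2% of 5690 at version 4; of 22 at version 5 it was 81.8%. Among expressed IDs the median was 5.97 CPM at version 1 and 16.0, 21.0, 21.6 and 21.7 CPM at versions 2 to 5. Version 1 still supplied 12 of the 100 leading IDs and 8.04% of the counts. Of 409 IDs whose number is 500000 or higher, 380 had no count and 4 were expressed.

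Neighbouring IDs were compared in how they varied between replicates. Among IDs with at least 10 CPM placed in number order within chromosomes, 17.9% of 12654 adjacent pairs had the same order of the 3 libraries, and between 15.9 and 17.5% of pairs 2 to 100 steps apart. Their levels had r = 0.05 for adjacent pairs, as a description across IDs. Of these IDs 119, or 0.940%, stood more than 2-fold from the mean of the other libraries in at least 1 library. Pairs in which both IDs did so numbered 7 among adjacent IDs, 4, 2 and 1 at 2, 3 and 5 steps, 0 at 10 and at 50 steps, and 2 at 100 steps. Directly adjacent IDs of the whole table that were far in the same library and direction formed 2 runs with 5 IDs in all, those around Solyc01g090350.3 and Solyc02g086454.1.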
